A study of Homo sapiens with 9 samples.

Results

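The 35 genes described here form the core of the unfolded protein response (UPR), the program with which cells adjust protein folding in the endoplasmic reticulum (ER). They are the stress sensors of the ER membrane, their transcription factors and eIF2α phosphatase subunits, the chaperones and disulfide enzymes of the ER lumen, genes of ER-associated degradation (ERAD), and a few further ER stress targets. They were chosen by name, with earlier results of these data known, which bears on each comparison with other genes below. Each was followed through a probe set whose annotation gives 1 gene symbol. In this way 32 of the 35 were measured, out of 22392 genes with such a probe set. The probe sets of ATF6B, HSP90B1 and EDEM2 carry several symbols, so no value is given for these 3 genes.

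RNA came from MDA-MB-231, an established triple-negative breast cancer line, and was measured 24 h after addition of GNE-140, an inhibitor of lactate dehydrogenases A, B and C, at 50 µM, or in control cells. By title and treatment label, set 1 holds 3 control arrays (1A, 1B, 1C) and 2 GNE-140 arrays (1A, 1B), and set 2 holds 2 control arrays (2A, 2B) and 2 GNE-140 arrays (2A, 2B). The source name, a further label, calls the 3 controls of set 1 untreated, but names a Boswellia serrata extract for both GNE-140 arrays of set 1 and for control 2A, and a boswellic acid for control 2B and both GNE-140 arrays of set 2. The sources used here do not settle which label is right, and this bears on every comparison below. Nothing in the labels says that the arrays of a group came from separate cultures, so the p-values cover only how far arrays lie apart, and part of that may be technical.

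The values are log2 signals of 53617 probe sets on GeneChip Human Gene 2.1 ST arrays. The median signal of an array lay between 1.32 and 1.36 in set 1 and between 2.27 and 2.31 in set 2, so levels were compared within a set, and changes were estimated with the set as a block. All 8 markers of mesenchymal breast lines, vimentin and CD44 among them, were above the 75th percentile on every array, and 0 of 7 fibroblast and 0 of 7 leukocyte markers were above it on all. Of 9 measured markers of luminal breast lines, 2 (EPCAM and TFF1) were above it on every array. KRT18, a keratin of luminal epithelium, fell with GNE-140 by 0.45 on the log2 scale (SE 0.0755, limma adjusted p = 0.0503).

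The ER lumen holds the chaperones and oxidoreductases that fold secreted and membrane proteins. When unfolded proteins accumulate, the sensors IRE1α (gene ERN1), PERK (EIF2AK3) and ATF6 become active. IRE1α splices the XBP1 mRNA, PERK phosphorylates eIF2α and so lowers translation while ATF4 is made, and ATF6 is cleaved to a transcription factor. XBP1 and ATF6 act on chaperone and ERAD genes through the ER stress response element (ERSE), and ATF4 acts through composite C/EBP-ATF elements (CARE). PPP1R15A and PPP1R15B bring protein phosphatase 1 to eIF2α and so reverse the PERK step.

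The promoter of HSPA5, which encodes the ER chaperone BiP, is shown because HSPA5 is the chaperone among the genes that rose and because its ERSE is the model element of this response. The sequence is the 250 bases before the RefSeq start at chr9:125241344-125241593 (GRCh38.p14, minus strand), with the ERSE, CCAAT and CCACG separated by 9 bases, in capitals. This is the 1 exact match to the ERSE in the sequence, and it begins 66 bases upstream of the start. Copies that differ from these letters were not searched for.
HSPA5: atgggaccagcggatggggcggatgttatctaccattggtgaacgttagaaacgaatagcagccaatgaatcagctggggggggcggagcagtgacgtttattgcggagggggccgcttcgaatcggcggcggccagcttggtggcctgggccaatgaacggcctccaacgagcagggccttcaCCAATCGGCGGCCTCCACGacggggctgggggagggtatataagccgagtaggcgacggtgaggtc

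Promoters of 250 bases before to 50 bases after a start were found in the RefSeq table for 32 of the 35 genes. DERL1, DERL3 and PDIA3 had none in it. Both strands were searched for 4 motifs, and overlaps between motifs were allowed. Only exact matches to the letters were counted (N for any base), so a promoter without a match can still hold a variant of the element. The ERSE (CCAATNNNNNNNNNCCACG) was in the promoters of 8 of the 32 genes, CALR, CANX, CRELD2, ERO1B, HSP90B1, HSPA5, PDIA6 and XBP1, and in 0.0769% of all 35116 promoters (0.0916% of the 27305 genes with a promoter). ERSE-II (ATTGGNCCACG) was in 3, HERPUD1, HYOU1 and SDF2L1, and in 0.0541% of all promoters (0.0696% of genes). The CARE (TGATGNAA) was in 3, CREB3L2, HERPUD1 and PPP1R15B, against 3.62% of all promoters (4.46% of genes), and the cyclic AMP response element (CRE, TGACGTCA) was in 2, CREB3L2 and PPP1R15A, against 1.85% of all promoters (2.25% of genes). The windows below show 5 of these matches, at least 1 of each kind, with 10 bases on each side and the match in capitals: the ERSE of XBP1 and of CANX, whose genes did not pass the test, the ERSE-II of HERPUD1, and the CRE and CARE of the phosphatase subunits, which rose (GRCh38.p14, written along the gene's strand).
XBP1 (ERSE, chr22:28800593-28800631, minus strand): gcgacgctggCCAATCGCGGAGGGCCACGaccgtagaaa
CANX (ERSE, chr5:179698768-179698806, plus strand): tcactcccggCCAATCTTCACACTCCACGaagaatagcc
HERPUD1 (ERSE-II, chr16:56932015-56932045, plus strand): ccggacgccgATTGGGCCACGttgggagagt
PPP1R15A (CRE, chr19:48872353-48872380, plus strand): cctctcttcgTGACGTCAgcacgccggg
PPP1R15B (CARE, chr1:204412027-204412054, minus strand): ccgccccggcTGATGCAAcctcacgctg

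With GNE-140, 4 of the 32 measured genes rose and 0 fell at an adjusted p under 0.1 (limma, set as a block, Benjamini-Hochberg over all 53617 probe sets). These were ERN1, PPP1R15A, PPP1R15B and HSPA5, with increases of 1.32 to 1.72 times. By the same rule, 0.433% of all probe sets were higher and 0.532% were lower. Among the 22392 genes with 1 symbol, 0.679% were higher, and among the 14415 of these with a mean above that of the median probe set, 1.05% were higher. At an unadjusted p under 0.05, 11 of the 32 genes were higher and 0 lower, next to 1681 higher and 1379 lower of the 22392 genes.

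The call of these 4 genes rested on all 4 arrays of set 2. When any one of them was left out, 0 of the 32 genes passed in limma (9 to 11 were higher at an unadjusted p under 0.05). Of all probe sets, 157 and 202 then passed without control array 2A or 2B, and 185 and 155 without the GNE-140 array 2A or 2B, in place of 517. With an array of set 1 left out, 1 to 4 genes passed. Leaving out control 1A or GNE-140 1A kept PPP1R15A and HSPA5, leaving out control 1C kept PPP1R15A alone, leaving out GNE-140 1B gave PPP1R15A and DNAJB9, and leaving out control 1B gave PPP1R15A, PPP1R15B, HSPA5 and ERO1B. The log2 change stayed within 0.62 to 0.87 for ERN1 (SE 0.147 with all arrays) and 0.66 to 0.79 for PPP1R15A. It stayed within 0.45 to 0.56 for PPP1R15B and 0.37 to 0.43 for HSPA5. These fits share most of their arrays, so their closeness says little of the size of the effect.

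**Figure D1:**
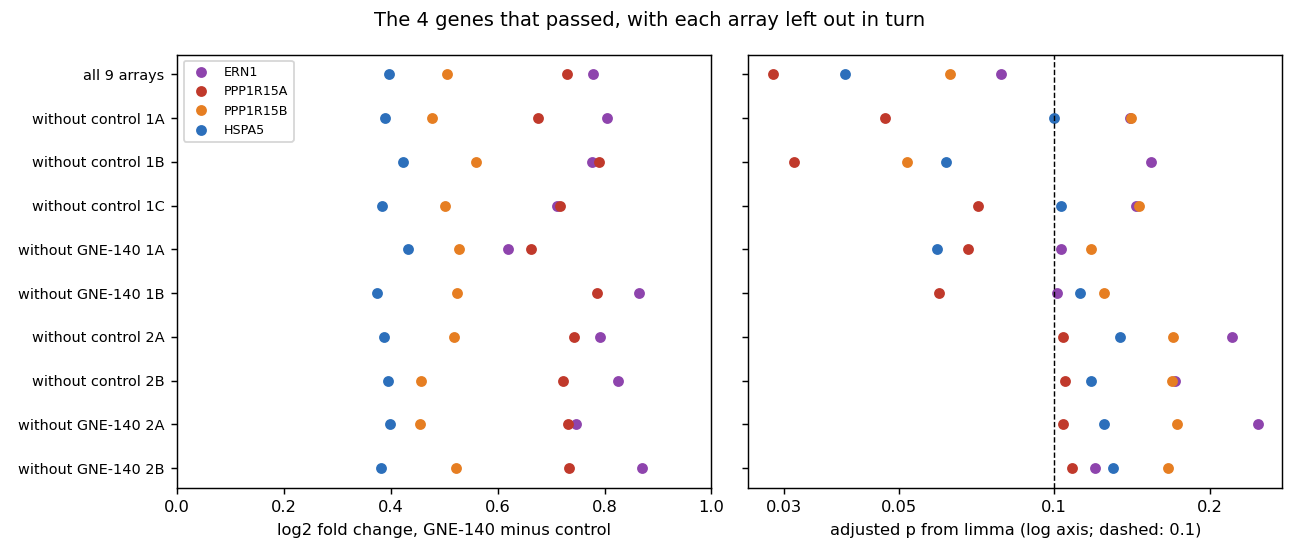
Log2 fold change (left, GNE-140 minus control) and limma adjusted p (right, log axis, dashed line at 0.1) of ERN1, PPP1R15A, PPP1R15B and HSPA5 with all 9 arrays and with each array left out in turn, set as a block. The fold changes of each gene stay positive. All 4 adjusted p lie above 0.1 when any array of set 2 is left out. Those of ERN1 lie above 0.1 in all 9 cases (0.101 to 0.248).

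Of the 3 measured sensors, ERN1 rose, and EIF2AK3 and ATF6 did not pass the test. ERN1 encodes IRE1α, the kinase and endoribonuclease that splices XBP1 mRNA. Its log2 signal in set 1 was 3.51, 3.40 and 3.14 on the controls and 4.56 and 3.98 with GNE-140. In set 2 it was 4.72 and 4.81 on the controls and 5.55 and 5.20 with GNE-140. In both sets every GNE-140 array was above every control array, and in both the A array was the higher of the GNE-140 pair. Its log2 fold change was 0.78 (SE 0.147, 95% interval 0.44 to 1.11, 1.72 times, limma adjusted p = 0.0788), with 0.92 (SE 0.233) in set 1 and 0.61 (SE 0.164) in set 2. The difference between the sets did not pass (limma interaction, adjusted p = 0.82). The call of ERN1 was lost with any 1 of the 9 arrays left out (limma adjusted p 0.101 to 0.248) and after centring of the arrays (0.106).

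EIF2AK3 encodes PERK, the sensor kinase that phosphorylates eIF2α. Its signal was 4.07, 4.08 and 4.08 on the controls of set 1 and 4.11 and 4.08 with GNE-140, and in set 2 it was 4.61 and 4.61 on the controls and 4.71 and 4.68 with GNE-140. The groups were apart in set 2 and met at 4.08 in set 1. Its change was 0.05 on the log2 scale (95% interval -0.06 to 0.17, limma adjusted p = 0.758), so a change of the size of that of ERN1 lies outside the interval. The deposited value of EIF2AK3 was identical on 3 arrays of set 1, so this interval may be too narrow. ATF6, the sensor that is cleaved to a transcription factor, had signals of 6.86, 6.90 and 6.86 on the controls of set 1 and 6.97 and 6.86 with GNE-140, then 7.46 and 7.38 on the controls of set 2 and 7.45 and 7.48 with GNE-140. Its groups overlapped in both sets, with a log2 fold change of 0.04 (95% interval -0.08 to 0.16, limma adjusted p = 0.836).

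Both eIF2α phosphatase subunits rose, and both transcription factors of the list, XBP1 and CREB3L2, did not pass. PPP1R15A (GADD34) is the stress-inducible subunit, made downstream of ATF4. In set 1 its log2 signal was 5.18, 5.64 and 5.34 on the controls and 6.28 and 5.99 with GNE-140, and in set 2 it was 7.11 and 7.05 on the controls and 7.79 on both GNE-140 arrays. No control array reached a GNE-140 array of its set. Its log2 fold change was 0.73 (SE 0.102, 95% interval 0.49 to 0.96, 1.66 times, limma adjusted p = 0.0285), the lowest adjusted p of the 32 genes, and it was close in both sets, 0.75 (SE 0.183) and 0.71 (SE 0.121).

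PPP1R15B (CReP) is the subunit found in unstressed cells. Its signals were 6.44, 6.76 and 6.53 on the controls of set 1 and 7.00 and 7.01 with GNE-140, and 7.51 and 7.34 on the controls of set 2 and 8.12 and 7.93 with GNE-140. The groups did not overlap in either set. The log2 fold change was 0.50 (SE 0.0902, 95% interval 0.30 to 0.71, 1.42 times, limma adjusted p = 0.0628), with 0.43 (SE 0.114) in set 1 and 0.60 (SE 0.144) in set 2. XBP1, the transcription factor whose mRNA IRE1α splices, had signals of 5.38, 5.38 and 5.32 on the controls of set 1 and 5.38 on both GNE-140 arrays, then 5.91 and 5.92 on the controls of set 2 and 5.94 and 6.03 with GNE-140. Its log2 fold change was 0.04 (95% interval -0.08 to 0.16, limma adjusted p = 0.822), and since 1 value stands for the whole gene, spliced and unspliced XBP1 mRNA cannot be told apart here. CREB3L2, a membrane-bound transcription factor that is cleaved like ATF6, changed by 0.14 (limma adjusted p = 0.629).

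**Figure D2:**
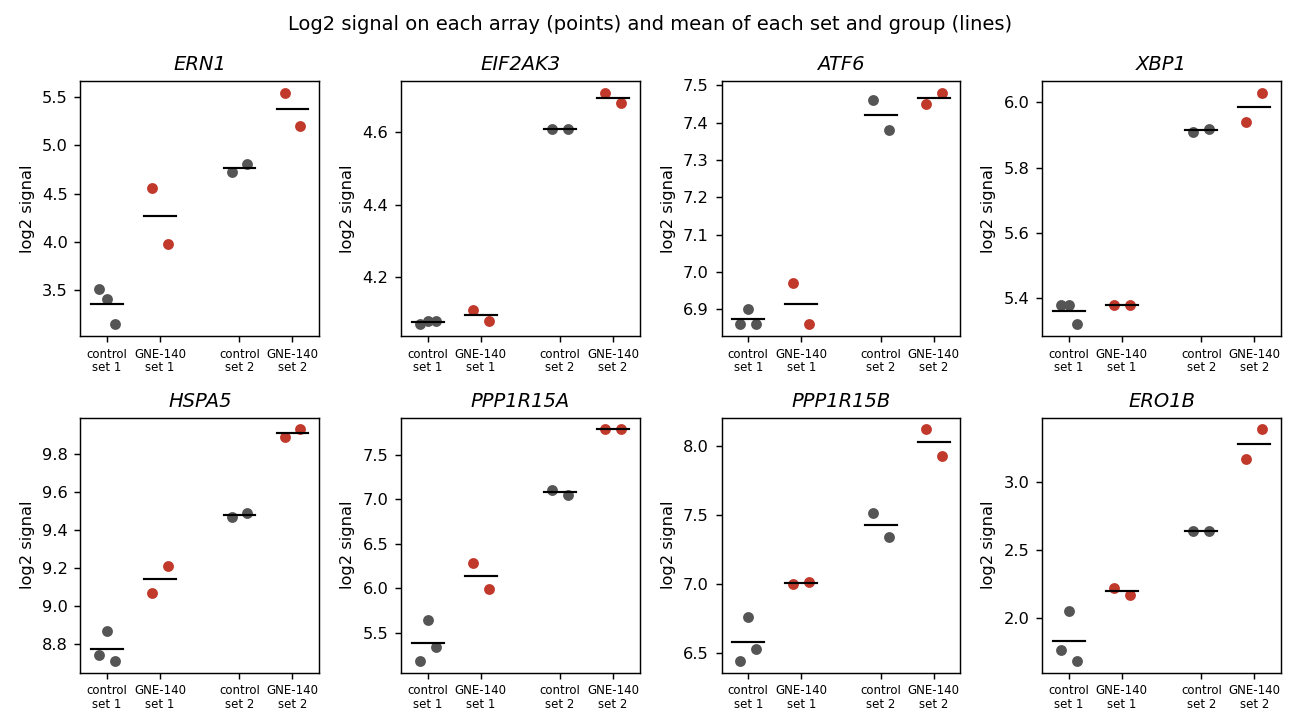
Log2 signal of 8 genes on each of the 9 arrays (points, grey for control and red for GNE-140) with the mean of each set and group (lines); each panel has its own axis. The GNE-140 arrays of ERN1, HSPA5, PPP1R15A, PPP1R15B and ERO1B lie above all controls of their set, while those of EIF2AK3, ATF6 and XBP1 meet or overlap the controls in set 1, and set 2 lies above set 1 throughout.

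Of the abundant lumenal chaperones of the HSP70 and HSP110 classes, HSPA5 rose and HYOU1 did not pass. HSPA5 encodes BiP, the HSP70 chaperone that also holds the sensors inactive, and its promoter with the ERSE is printed above. Its log2 signal was 8.74, 8.87 and 8.71 on the controls of set 1 and 9.07 and 9.21 with GNE-140, and in set 2 it was 9.47 and 9.49 on the controls and 9.89 and 9.93 with GNE-140. Every GNE-140 array was above the controls of its set, by at least the range of those controls. The log2 fold change was 0.40 (SE 0.0619, 95% interval 0.25 to 0.54, 1.32 times, limma adjusted p = 0.0394), with 0.37 (SE 0.0746) in set 1 and 0.43 (SE 0.120) in set 2. HYOU1, the HSP110-class partner that exchanges nucleotide on BiP, was 6.57, 6.68 and 6.68 on the controls of set 1 against 6.69 and 6.81, and 7.10 and 7.05 on the controls of set 2 against 7.37 and 7.38. Its groups did not overlap in either set, but its log2 fold change of 0.19 did not pass (limma adjusted p = 0.359).

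None of the 4 J-domain co-chaperones, which direct clients to BiP, passed in limma, and 2 were higher at an unadjusted p under 0.05. DNAJB9 (ERdj4), a target of XBP1, had the largest change of them, a log2 fold change of 0.34 (SE 0.103, limma adjusted p = 0.293). Its signals were 4.24, 4.13 and 4.24 on the controls of set 1 against 4.74 and 4.24, and 4.57 and 4.57 on the controls of set 2 against 4.90 and 5.04. The groups were apart in set 2, and in set 1 GNE-140 1B stood at 4.24 like 2 of the controls. DNAJC3, a co-chaperone that also inhibits PERK, changed by 0.27 (SE 0.0799, limma adjusted p = 0.291). DNAJB11 changed by 0.05, and DNAJC10, a reductase of the ERAD pathway, by -0.11 (limma adjusted p = 0.861 and 0.677).

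The lectin chaperones calreticulin and calnexin, which hold glycoproteins during folding, changed by 0.09 (CALR, limma adjusted p = 0.651) and 0.13 (CANX, limma adjusted p = 0.505), and neither passed even unadjusted. Of the 5 disulfide enzymes, ERO1B, the oxidase that recharges protein disulfide isomerases, was just above the threshold. Its signal was 1.76, 2.05 and 1.68 on the controls of set 1 and 2.22 and 2.17 with GNE-140, and 2.64 on both controls of set 2 and 3.17 and 3.39 with GNE-140. The groups did not overlap, at levels not far above the median signal of the arrays. This log2 fold change was 0.49 (SE 0.101, 1.41 times, limma adjusted p = 0.105), and the test passed (adjusted p = 0.0639) when probe sets below the median level were left out. The test did not pass after quantile normalization (limma adjusted p = 0.111), after centring of the arrays (0.132) or with a variance trend (0.12). The isomerases PDIA4, PDIA6 and P4HB changed by 0.10, 0.13 and 0.07. PDIA3, the isomerase that works with the lectin chaperones, changed by -0.19 (limma adjusted p = 0.527), at 1.37 to 1.94 on the 9 arrays and below the array median on 4 of them.

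Of the 8 measured ERAD genes, which retrieve misfolded proteins for degradation, 0 passed in limma and 2 were higher at an unadjusted p under 0.05. HERPUD1, a membrane adaptor of the HRD1 ligase complex with the ERSE-II shown above, was 5.43, 5.53 and 5.34 on the controls of set 1 against 5.85 and 5.61, and 6.48 and 6.31 on the controls of set 2 against 6.77 and 6.76. No control array reached a GNE-140 array of its set. On the log2 scale the change was 0.33 (SE 0.0769, limma adjusted p = 0.156), and the test passed (adjusted p = 0.0945) when probe sets below the median level were left out. For HERPUD1 too the test did not pass after quantile normalization (limma adjusted p = 0.116), after centring (0.228) or with a variance trend (0.122). EDEM3, which trims mannose from misfolded glycoproteins, changed by 0.25 (limma adjusted p = 0.38), and EDEM1 by 0.09. The HRD1 ligase SYVN1 and its partner SEL1L changed by 0.20 and 0.11, and the derlins DERL1, DERL2 and DERL3, channel-like proteins of the same complex, by 0.15, -0.01 and 0.10.

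Among the other ER stress targets, SEC61B, the beta subunit of the translocon, changed by 0.19 (limma adjusted p = 0.46). MANF, a secreted ER stress protein, changed by 0.13, CRELD2 by 0.03 and SDF2L1, a BiP co-factor, by -0.04. None of these 4 passed in limma, and SEC61B was the 1 gene of them at an unadjusted p under 0.05. By role, medians of the log2 fold change were 0.32 for the transcription factors and phosphatase subunits and 0.29 for HSPA5 and HYOU1. They were 0.16 for the J-domain proteins, 0.13 for ERAD, 0.11 for the lectin chaperones and 0.10 for the disulfide enzymes. For the other targets and the sensors they were 0.08 and 0.05. The median for ERAD was 0.03 within set 1 and 0.30 within set 2. The 0.32 lies between XBP1 and CREB3L2 (0.04 and 0.14) and PPP1R15B and PPP1R15A (0.50 and 0.73), and the sensors include ERN1 at 0.78.

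**Figure D3:**
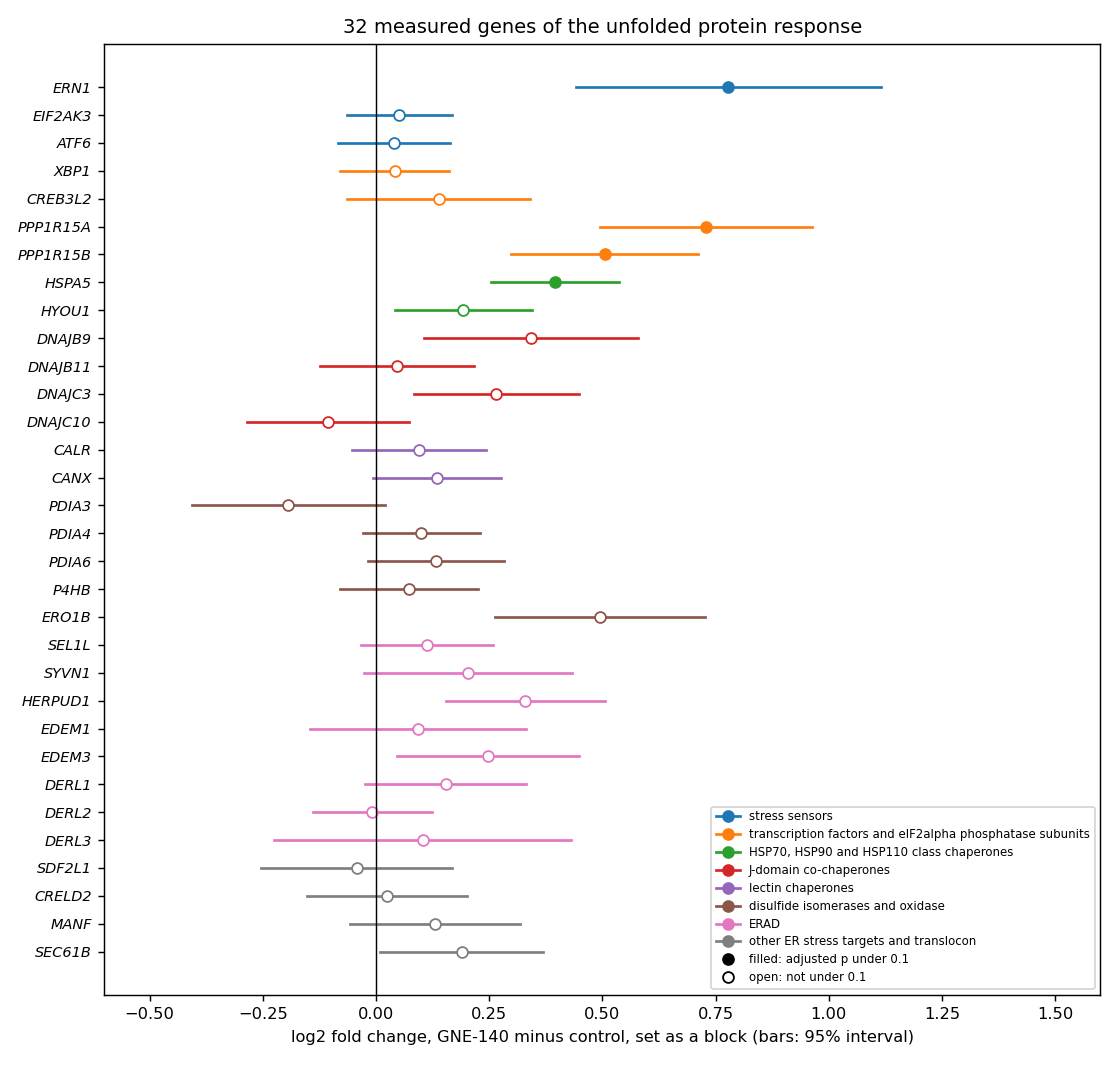
Log2 fold change of the 32 measured genes (GNE-140 minus control, set as a block, bars for the 95% interval), coloured by role, with filled points for an adjusted p under 0.1 over all probe sets. The 4 filled points are ERN1, PPP1R15A, PPP1R15B and HSPA5, 28 of the 32 points lie above 0, and the 4 below 0 are DNAJC10, PDIA3, DERL2 and SDF2L1.

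Most of the changes were small and positive. The log2 fold change was above 0 for 28 of the 32 genes (87.5%), compared with 52.26% of all genes with 1 symbol and 55.43% of those with a mean above that of the median probe set. After quantile normalization 26 were above 0, since ATF6 and XBP1 lay at -0.02 and -0.0041, and after centring of the arrays 28. Its median over the 32 genes was 0.13, beside 0.01 over all genes with 1 symbol and 0.02 over the brighter ones. After quantile normalization that of the 32 genes was 0.086. With the set as a block the change ranged from -0.19 to 0.78. In 23 genes (71.88%) the change was above 0 in both sets, compared with 30.97% of all genes with 1 symbol and 35.35% of the brighter ones, and PDIA3 was the 1 gene below 0 in both. Every GNE-140 array was above every control array of its set in both sets for 9 genes, ERN1, PPP1R15A, PPP1R15B, HSPA5, HYOU1, CANX, ERO1B, HERPUD1 and SEC61B, and for 3.85% of all genes with 1 symbol, and the reverse held for 0 of the 32. Equal values were common in set 1, where 15 of the 32 genes had an identical deposited value, in all its decimals, on 3 or more of the 5 arrays, as had 48.84% of all genes with 1 symbol, and none of the 4 genes that rose was among them.

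The sets were also compared with each other. Within set 1 alone, 0 of the 32 genes passed in limma (4 were higher at an unadjusted p under 0.05, lowest adjusted p = 0.753), and within set 2 alone 0 passed (8 were higher at an unadjusted p under 0.05, lowest adjusted p = 0.23). Of all probe sets, 0% passed in either set alone, so the count that passed within a set says nothing particular of these genes. At an unadjusted p under 0.05, 654 of the 22392 genes with 1 symbol were higher in set 1 and 1356 in set 2. Over the 32 genes, the change had a median of 0.11 (log2) in set 1, and of 0.19 in set 2. The limma interaction of set and treatment passed for 0 of the 32 genes (0.0541% of all probe sets, lowest adjusted p of the 32 genes = 0.478). Its unadjusted p was under 0.05 for 3 of them, DNAJC10, DERL1 and DERL3, next to 1854 of the 22392 genes with 1 symbol. The share was thus near the background. DERL3 had the widest gap of these, with -0.19 in set 1 and 0.45 in set 2. PPP1R15A and HSPA5 differed between the sets by -0.04 and 0.06 on the log2 scale (limma interaction, adjusted p = 0.977 and 0.929), and PPP1R15B by 0.17 (adjusted p = 0.834).

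**Figure D4:**
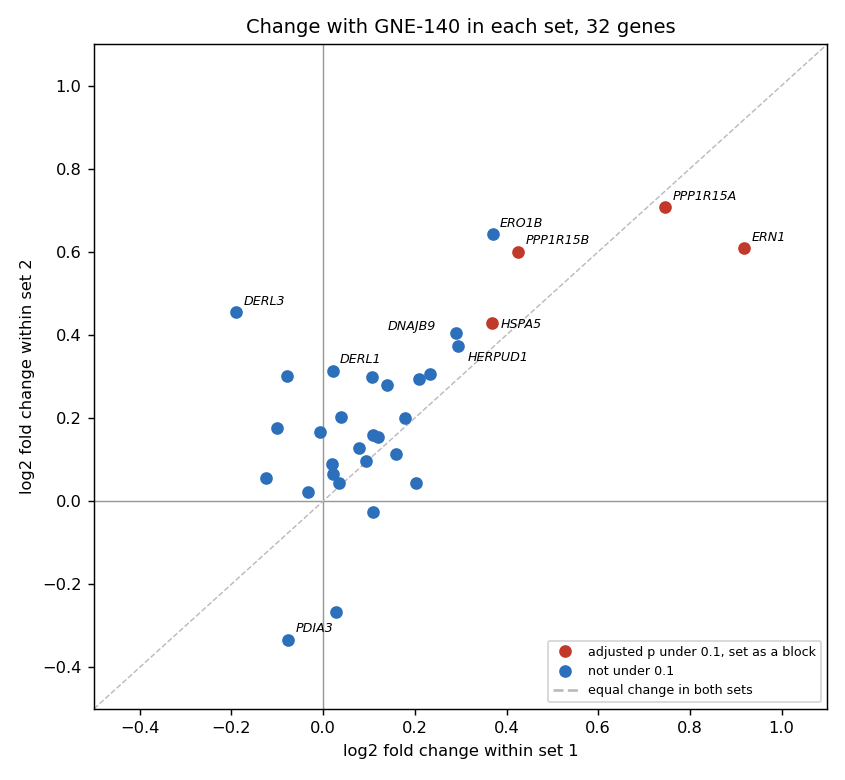
Log2 fold change of the 32 genes within set 1 (horizontal) and within set 2 (vertical), red for the 4 genes that passed in the fit over both sets; the dashed line marks equal change. The 23 genes in the upper right part were above 0 in both sets, PDIA3 was below 0 in both, and the red points lie at 0.37 or more in set 1 and 0.43 or more in set 2.

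The ERSE carriers did not stand out among the 32 genes. The 7 measured genes with an ERSE had a median log2 fold change of 0.13, and so had the other measured genes. Those others include the 3 genes with ERSE-II, and also DERL1, DERL3 and PDIA3, whose promoters were not searched. HSPA5 was the 1 gene with an ERSE that passed. The 3 genes with ERSE-II had a median of 0.19. The 3 with a CARE, PPP1R15B among them, had a median of 0.33, which is the value of HERPUD1, a carrier of ERSE-II as well. The 2 with a CRE, CREB3L2 and PPP1R15A, had a median of 0.43. The promoter of ERN1 held none of these letters in its window. These are descriptions of few genes, and a match is not a site of binding.

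The rest of the ER was followed in 7 further lists of 189 genes, 175 of them measured. Of these, 1 gene rose and 2 fell at an adjusted p under 0.1 in limma (21 were higher and 12 lower at an unadjusted p under 0.05), beside 0.679% higher and 1.02% lower of all genes with 1 symbol by the same rule, so the number that passed was near the background. Their median log2 fold change was 0.03, and 57.71% were above 0. The median was 0.06 for N-glycosylation and for the other stress regulators, 0.04 for the translocon and signal peptidase, 0.03 for the other ERAD genes and for COPII and ER export, -0.01 for ER-phagy receptors and -0.07 for the other folding enzymes. In the lists of folding enzymes, translocon, N-glycosylation, COPII and ER-phagy genes 0 passed in limma (1, 3, 3, 4 and 1 were higher and 2, 1, 3, 1 and 0 lower at an unadjusted p under 0.05).

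The 3 genes that passed were CEBPB, DDIT4 and ERLIN1, named here as the members of these lists past the threshold and not as a result about the lists. CEBPB, a transcription factor that pairs with ATF4, had signals of 2.82, 2.96 and 3.11 on the controls of set 1 and 3.42 and 3.32 with GNE-140, and 4.93 and 5.01 on the controls of set 2 and 5.45 and 5.29 with GNE-140, a rise of 0.41 (SE 0.0766, limma adjusted p = 0.0783). DDIT4 (REDD1), an inhibitor of mTORC1 induced by many stresses, was at 5.19, 5.55 and 5.32 on the controls of set 1 and 4.47 and 4.55 with GNE-140, and at 6.60 and 6.26 on the controls of set 2 and 5.70 and 5.84 with GNE-140. It fell by 0.76 on the log2 scale (SE 0.104, limma adjusted p = 0.0269), with every GNE-140 array below every control of its set. ERLIN1, part of the complex that degrades activated inositol trisphosphate receptors, was at 7.04, 7.03 and 7.00 against 6.78 and 6.67 in set 1 and at 7.18 and 7.14 against 6.69 and 6.86 in set 2, and fell by 0.33 (SE 0.0613, limma adjusted p = 0.0692).

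Some genes downstream of PERK were picked after their values were seen, because PPP1R15A lies on that branch. ATF4, its transcription factor, changed by 0.32 on the log2 scale (limma adjusted p = 0.222), with signals of 6.08, 6.19 and 6.29 on the controls of set 1 against 6.71 and 6.49, and 7.84 and 7.73 on the controls of set 2 against 8.07 and 7.92. DDIT3 (CHOP), a transcription factor of prolonged stress, changed by 0.15 (adjusted p = 0.638), TRIB3 by 0.19 (0.572), CHAC1 by 0.04 (0.939), ATF3 by 0.02 (0.974) and SESN2 by 0.47 (0.296, all from limma). ASNS, asparagine synthetase and an ATF4 target, changed by -0.41 (limma adjusted p = 0.375), with -0.08 in set 1 and -0.81 in set 2. ERO1A, the more widely expressed relative of ERO1B, changed by -0.17 (limma adjusted p = 0.323). None of these 8 genes passed the test.

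**Figure D5:**
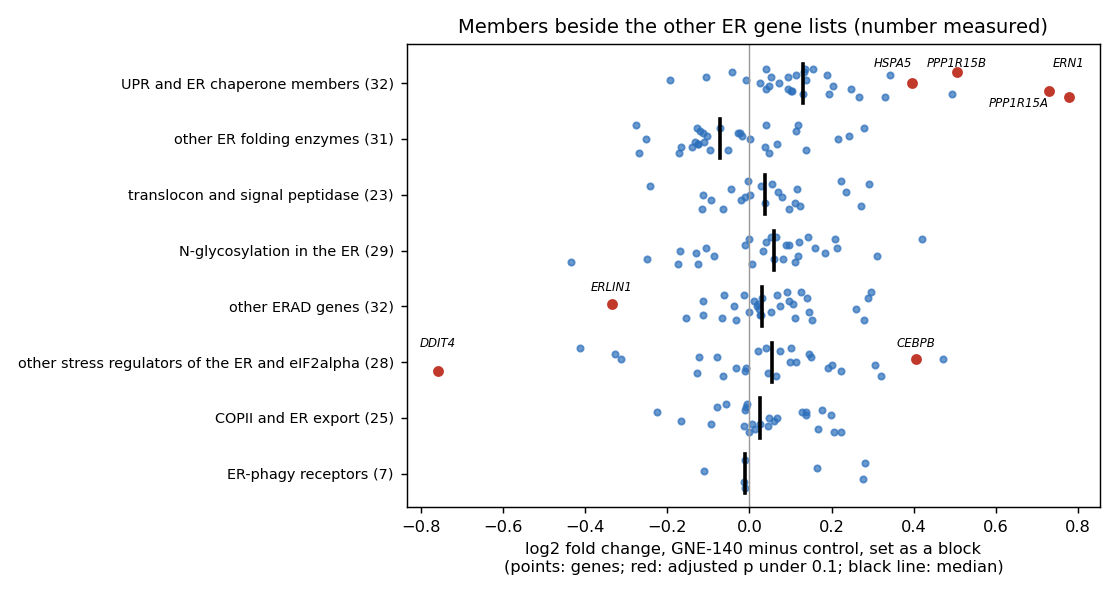
Log2 fold change (GNE-140 minus control, set as a block) of the 32 UPR and ER chaperone genes and of the 7 other ER lists, 1 point per gene, with the number measured in brackets, red for an adjusted p under 0.1 and a black line for the median. The median of the 32 genes is at 0.13 and those of the other lists between -0.07 and 0.06, and the red points outside the 32 genes are CEBPB, DDIT4 and ERLIN1.

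Some luminal markers were lower with GNE-140. Of the 9 measured, 5 (GATA3, EPCAM, KRT8, KRT18 and TFF1) were below 0 in both sets and lower at an unadjusted p under 0.05, 4 (ESR1, PGR, FOXA1 and CDH1) were above 0 with 0 of them under 0.05, and KRT18 was the 1 that passed after adjustment in limma. At an unadjusted p under 0.05, 1379 of the 22392 genes with 1 symbol were lower. Luminal markers were not alone in this. Of the 8 mesenchymal markers, 3 were lower and 1 higher at that threshold, with a median log2 fold change of -0.05. The log2 fold change of the 9 luminal markers ranged from -0.45 to 0.25, with a median of -0.24. The mean log2 level of the list was 2.52 to 2.55 on the controls and 2.44 to 2.46 with GNE-140 in set 1, and 3.47 to 3.63 on the controls and 3.29 to 3.36 with GNE-140 in set 2. Their part in the changes of the UPR genes was not tested. In such bulk samples fewer cells of a kind and less RNA per cell cannot be told apart.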

How the data were processed

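RNA of MDA-MB-231 cells was hybridised to 9 GeneChip Human Gene 2.1 ST arrays. The authors deposited log2 signals of 53617 probe sets. They converted CEL to CHP files in the Affymetrix Expression Console, and the submitters' processing notes also name the Transcriptome Analysis Console. How probes were summarized, corrected and normalized, and in which versions, is not given in these sources. That the values are on a log2 scale follows from their range. The study's text gives other numbers of arrays per set than the labels, and the labels were followed.

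Of the probe sets, 23866 have 1 symbol, 1852 several and 27899 none. Of several probe sets of a gene the one with the highest mean stands for it (630 genes, none among the UPR genes). GNE-140 was compared with control in limma 3.58.1 under R 4.3.3 (lmFit, eBayes, set as a block) over all probe sets, without a filter, with Benjamini-Hochberg adjustment and the study's threshold of 0.1. The same test was run within each set, and the interaction of set and treatment tested the difference between sets. Intervals are at 95%. Tested on simulated data made from these arrays, the comparison with the set as a block recovered 30% of 100 probe sets that had a log2 change of 0.5 and 84% of 100 that had one of 1, among 53617, with 7 false calls of 121, so many changes of the size seen here would be missed. The precision is limited by the number of arrays.

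The genes and lists were chosen with earlier results of these data known. Values on each array are given for the sensors, XBP1, HSPA5 and genes that passed, and for up to 4 of each other list that passed. The genes with the largest changes of each role are named with their fold change. HYOU1, DNAJB9, ERO1B, HERPUD1 and ATF4 are shown by array as further examples. Promoters came from RefSeq (GRCh38.p14). Alternatives were a fit without the set, another scaling, a filter on dim probe sets, a gene's mean over probe sets, a variance trend, a block by array letter, a fold threshold of 2, an adjusted p under 0.05 and each array left out.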

Additional observations from a re-analysis of the deposited data

Results flagged for a closer look

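Each gene's values, with the fitted difference between the sets removed, were checked in each group for an array far from the others, with the gap to the nearest array divided by the range of the group. Of 64 such checks, 9 gave a distant array. The rate of about 1 in 20 by chance takes no account of equal values in set 1 or of the fitted set difference. The 9 can therefore not be set against that rate. On the high side were PPP1R15B on GNE-140 2A at a log2 signal of 8.12, HSPA5 on control 1B at 8.87, ERO1B on control 1B at 2.05 and SEL1L on GNE-140 2B at 6.70. On the low side were DNAJB11 on control 1A at 5.35, PDIA3 on GNE-140 2A at 1.37, PDIA4 on control 2A at 6.86, PDIA6 on control 2B at 5.92 and DERL1 on control 2B at 7.76. The gap was 0.962 of the range for PPP1R15B and 0.715 of it for HSPA5, the 2 genes of these that rose. Without GNE-140 2A the log2 fold change of PPP1R15B was 0.45 (limma adjusted p = 0.173, and 0.0519 to 0.173 over all arrays left out), and without control 1B that of HSPA5 was 0.42 (limma adjusted p = 0.0617, and 0.0593 to 0.134 over all arrays left out).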

How the results depend on the processing

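The count of 4 genes higher became 0 without the set term, within set 1 alone, within set 2 alone, with the replicate block and with the study's fold threshold of 2, and 2 (PPP1R15A and HSPA5) at an adjusted p under 0.05. It ranged from 0 to 4 with each array left out, with 0 for each array of set 2. At an unadjusted p under 0.05, 0 genes were higher without the set term, 4 within set 1, 8 within set 2 and 9 with the replicate block, all in limma. The count at an adjusted p under 0.1 was 4 after quantile normalization, with a gene's mean over its probe sets and with a variance trend. It was 3 after centring the arrays (ERN1 limma adjusted p = 0.106). When dim probe sets were left out it was 6, with ERO1B and HERPUD1 added. The count lower was 0 in each of these settings. The median log2 fold change of 0.13 became 0.22 without the set term, 0.19 within set 2 and 0.086 after quantile normalization, and ranged from 0.11 to 0.16 with each array left out. Without the set term the median of all probe sets was 0.09. Of the values of single genes under these settings, 527 stayed on the same side of the threshold, 4 passed in addition and 44 no longer passed. The sign changed in 18 of them, all values that passed neither there nor with the set as a block. Arrays with the same letter were treated as sharing only a letter, since the correlation of their deviations was 0.03 and -0.15 in set 1 and -0.0025 in set 2, where 2 arrays a group give a single value. The replicate block also takes control 1C, which has no partner, out of the comparison, and without that array alone the count was 1. With the block 0 of all probe sets passed, and the median log2 fold change of the 32 genes was 0.13. Arrays have no depth. ERO1B, DERL3 and PDIA3 lay near the median signal, where background limits what can be measured.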
